A study of Mus musculus with 7 samples.

Results

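The axon guidance ligands and receptors of the mouse hippocampus were compared between RNA bound to the ribosomes of Gad2-Cre cells and RNA left unbound. Members were the protein-coding genes whose GENCODE M21 symbol begins with Sema, Plxn, Epha, Ephb, Efna, Efnb, Robo, Unc5 or Ntng, or with Slit, Nrp or Ntn followed by a digit, or is Dcc, and whose raw counts summed to at least 50 over the 7 libraries. Of 39017 genes in the count table, 75 matched by name, 72 of these were protein-coding, and 69 reached the count minimum. Just inside the minimum lay Sema3g with 63 counts, Epha1 with 111 and Efna1 with 190. Just outside it lay Epha2 with 43 counts, Efna4 with 19 and Unc5cl with 16. All 69 members passed the low-count filter and were tested. One of the 69, Unc50, encodes a Golgi-membrane protein and shares only the start of its name with the netrin receptors, which leaves 68 members of the guidance families, 35 ligands and 33 receptors.

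The assay was translating ribosome affinity purification (TRAP): cells with Cre recombinase make a ribosomal protein fused to EGFP, and ribosomes are pulled down through the EGFP together with their RNA. All libraries are from GAD2 cre+ mice crossed with L10-EGFP+ mice, and 2 hippocampi were pooled for a TRAP sample. The 3 bound libraries are titled GAD_ctrl, and the 4 unbound libraries are titled UBS (replicates 1 and 2) or UBGS (replicates 3 and 4), with no word in the labels on what these series are. Because Cre is driven by Gad2, which encodes a GABA-synthesizing enzyme, bound RNA comes from every class of Gad2-expressing cell together, and unbound RNA is what was not pulled down from the whole tissue, GABAergic cells included. The labels give no age, sex, animal, batch or pairing, so the spread behind each p-value is that of the 7 libraries and can include technical variation.

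Guidance cues are proteins that attract or repel growing axons and, in the adult brain, tune spines, synapses and myelin. Semaphorins signal through plexins, and the secreted class 3 semaphorins mostly need a neuropilin as the ligand-binding partner. Ephrins are tethered to the membrane, by a lipid anchor in the A class and by a transmembrane segment in the B class, and bind Eph receptor tyrosine kinases on the neighbouring cell. Slits are secreted ligands of Robo receptors, netrins bind Dcc and the Unc5 receptors, and the lipid-anchored netrin-G proteins bind the netrin-G ligands of the Lrrc4 family. In the hippocampus these systems are known for laying out the mossy fibre, perforant and Schaffer collateral paths, for pruning, and for keeping synapses in place.

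Promoter windows at RefSeq starts are shown for 4 members with large fold changes in opposite directions. They are the 2 largest rises and the 2 largest falls among called members with a mean of at least 10 CPM (counts relative to the scaled library total), and were chosen after the values were seen. Each window holds 300 bases, the last 50 of them past the RefSeq start (GRCm38.p6), 5′ to 3′ on the gene's strand. Capitals mark the searched motifs CAGATG (an E-box) and GGGCGG (a GC box, written CCGCCC where it lies on the other strand). The Sema3c window lies at chr5:17574566-17574865, + strand, and that of Sema4g at chr19:44989094-44989393, + strand. The Ntng2 window lies at chr2:29248050-29248349, - strand, and that of Sema3e at chr5:14025026-14025325, + strand. The Sema3c and Ntng2 windows lie wholly within the GENCODE bounds of their genes, 17574281-17730268 and 29194541-29253005. Most of the Sema4g window also lies within its gene, which begins at 44989101. Only the Sema3e window spans the GENCODE gene start, at 14025276. Which starts are used in these cells was not tested.
Sema3c: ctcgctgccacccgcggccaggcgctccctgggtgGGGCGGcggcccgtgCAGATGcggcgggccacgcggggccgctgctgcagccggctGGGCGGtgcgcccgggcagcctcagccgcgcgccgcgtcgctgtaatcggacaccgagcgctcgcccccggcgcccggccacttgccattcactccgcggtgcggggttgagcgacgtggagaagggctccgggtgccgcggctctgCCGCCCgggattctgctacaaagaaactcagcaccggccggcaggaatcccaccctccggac
Sema4g: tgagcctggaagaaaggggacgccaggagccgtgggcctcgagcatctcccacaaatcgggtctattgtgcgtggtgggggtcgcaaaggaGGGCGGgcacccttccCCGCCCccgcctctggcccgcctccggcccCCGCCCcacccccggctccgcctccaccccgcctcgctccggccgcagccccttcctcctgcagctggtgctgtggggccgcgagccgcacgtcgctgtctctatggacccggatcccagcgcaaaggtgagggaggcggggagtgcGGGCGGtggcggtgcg
Ntng2: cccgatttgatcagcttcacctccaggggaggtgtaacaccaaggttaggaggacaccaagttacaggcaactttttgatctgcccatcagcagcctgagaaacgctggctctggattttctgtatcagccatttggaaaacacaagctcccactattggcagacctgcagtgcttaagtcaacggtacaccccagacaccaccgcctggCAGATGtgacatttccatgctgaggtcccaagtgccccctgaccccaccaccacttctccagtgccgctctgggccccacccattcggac
Sema3e: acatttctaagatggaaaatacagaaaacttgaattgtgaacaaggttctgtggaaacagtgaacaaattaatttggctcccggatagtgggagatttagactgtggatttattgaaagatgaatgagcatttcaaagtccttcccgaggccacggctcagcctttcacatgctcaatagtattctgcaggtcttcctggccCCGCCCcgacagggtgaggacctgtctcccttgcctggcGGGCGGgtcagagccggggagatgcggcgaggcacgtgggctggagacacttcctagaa

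The windows of Sema3c and Sema4g, both higher in bound RNA, had 75.7% and 73.3% G or C, against 55.0% for Ntng2 and 50.7% for Sema3e, both lower. That order did not extend to the family: the median was 61.5% for windows of members called higher, 64.7% for those called lower, and 52.7% for all 32851 windows of this length. RefSeq windows matched 59 of the 69 members by symbol, with 75 windows in all. GGGCGG on either strand was found in 53 of these 75 windows (70.7%) against 35.7% of all windows, CAGATG in 6 (8%) against 17.2%, and TAATTA, the core bound by Dlx-type homeodomain proteins and the same on both strands, in 3 (4%) against 5.29%. The searched motifs were counted independently of each other, none of the 4 printed windows holds TAATTA, and a match says only that the letters are there.

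Library totals ranged from 38690380 to 51953811 counts. The label of the bound group was checked against markers. All 12 GABAergic neuron markers were higher in bound RNA, with summed levels of 5260 to 7027 CPM in bound against 445.3 to 552.4 in unbound libraries. Markers of excitatory neurons (11 of 12 lower, 1018 to 1255 against 4406 to 6461 CPM), astrocytes (9 of 10 lower, 240.0 to 263.2 against 1984 to 2922), oligodendrocytes (10 of 10 lower, 349.6 to 432.8 against 1303 to 1496) and oligodendrocyte precursors (6 of 6 lower, 10.7 to 14.7 against 106.2 to 118.8) were lower. So were those of endothelial and mural cells (9 of 11 lower, 19.9 to 32.8 against 110.7 to 132.8 CPM, with Kcnj8 at 0 counts in every bound library), choroid plexus and ependyma (5 of 8 lower, 52.9 to 106.3 against 1276 to 2137) and meningeal fibroblasts (8 of 8 lower, 4.21 to 8.39 against 233.8 to 248.2). No other marker was at 0 in all bound libraries. Microglia markers went the other way, with 11 of 11 higher in bound RNA and sums of 279.6 to 793.9 CPM, highest in bound replicate 2, against 90.5 to 137.0. These markers move with the comparison of bound and unbound RNA as a whole, and their part in the values of single members was not tested. In such bulk libraries, fewer cells of a type and less RNA per cell cannot be told apart.

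Of the 69 members, 17 (24.6%) were higher and 27 (39.1%) were lower in bound than in unbound RNA (edgeR quasi-likelihood test, Benjamini-Hochberg adjusted p below 0.05), and 25 were not called. Among all 19563 genes tested, 31.0% were higher and 30.7% lower, so the members' share was below the background for higher calls and above it for lower calls. No test of the list stands behind that comparison of shares. It also held with libraries scaled by their totals. Under an offset for exon length, the members' share of higher calls lay above the background instead. With an offset for exon length, 28 members were higher and 22 lower (median 0.116, against 0.014 over all genes), beside 30.9% and 28.0% of all genes. With libraries scaled by their totals alone, 30 were higher and 22 lower (median 0.252, against 0.426 over all genes), beside 47.5% and 18.9% of all genes. When a change had to exceed 1.5-fold, 6 members (8.7%) were higher and 21 (30.4%) lower, against 16.6% and 18.4% of all genes. For 48 members (69.6%) the bound libraries lay all above or all below the unbound ones, against 63.3% of all genes. The median log2 fold change, always bound minus unbound, was -0.186 over members and -0.008 over all genes tested. That gap depended on the genes tested. With DESeq2 the medians were close, at -0.212 over members and -0.222 over all genes. Without the low-count filter they were close too, at -0.18 and -0.169.

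Split by role, the counts were these. Of 35 ligands, 13 (37.1%) were higher and 12 (34.3%) lower, with a median log2 fold change of 0.051. Of 33 receptors, 4 (12.1%) were higher (Plxna3, Plxnc1, Ephb6 and Unc5d) and 15 (45.5%) lower, with a median of -0.517. Of all genes, 31.0% were higher and 30.7% lower, so the ligands' shares were near the background. Against the 1.5-fold minimum, 5 ligands (14.3%) were higher and 9 (25.7%) lower. Of the receptors, 1 (3.03%), Unc5d, was then higher and 12 (36.4%) lower, beside 16.6% and 18.4% of all genes. These splits changed with the scaling and with an offset for exon length, and the reason for the change was not tested. Members are long, with a median merged exon length of 6855 bases against 4378.5 for protein-coding genes tested and 3599.5 for all genes tested. With the exon length offset, where 30.9% of all genes were higher and 28.0% lower, 16 ligands were higher and 10 lower (median 0.307) and 12 receptors were higher and 12 lower (median -0.076). With library totals, which moved the median of all genes from -0.008 to 0.426 and called 47.5% of them higher and 18.9% lower, 18 ligands were higher and 9 lower (median 0.488) and 11 receptors higher and 13 lower (median -0.057). The ligands' median stayed above that of the receptors under both settings. The receptors' higher and lower calls were then near equal in number. With library totals, though, all genes leaned to higher calls and the receptors did not.

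**Figure D1:**
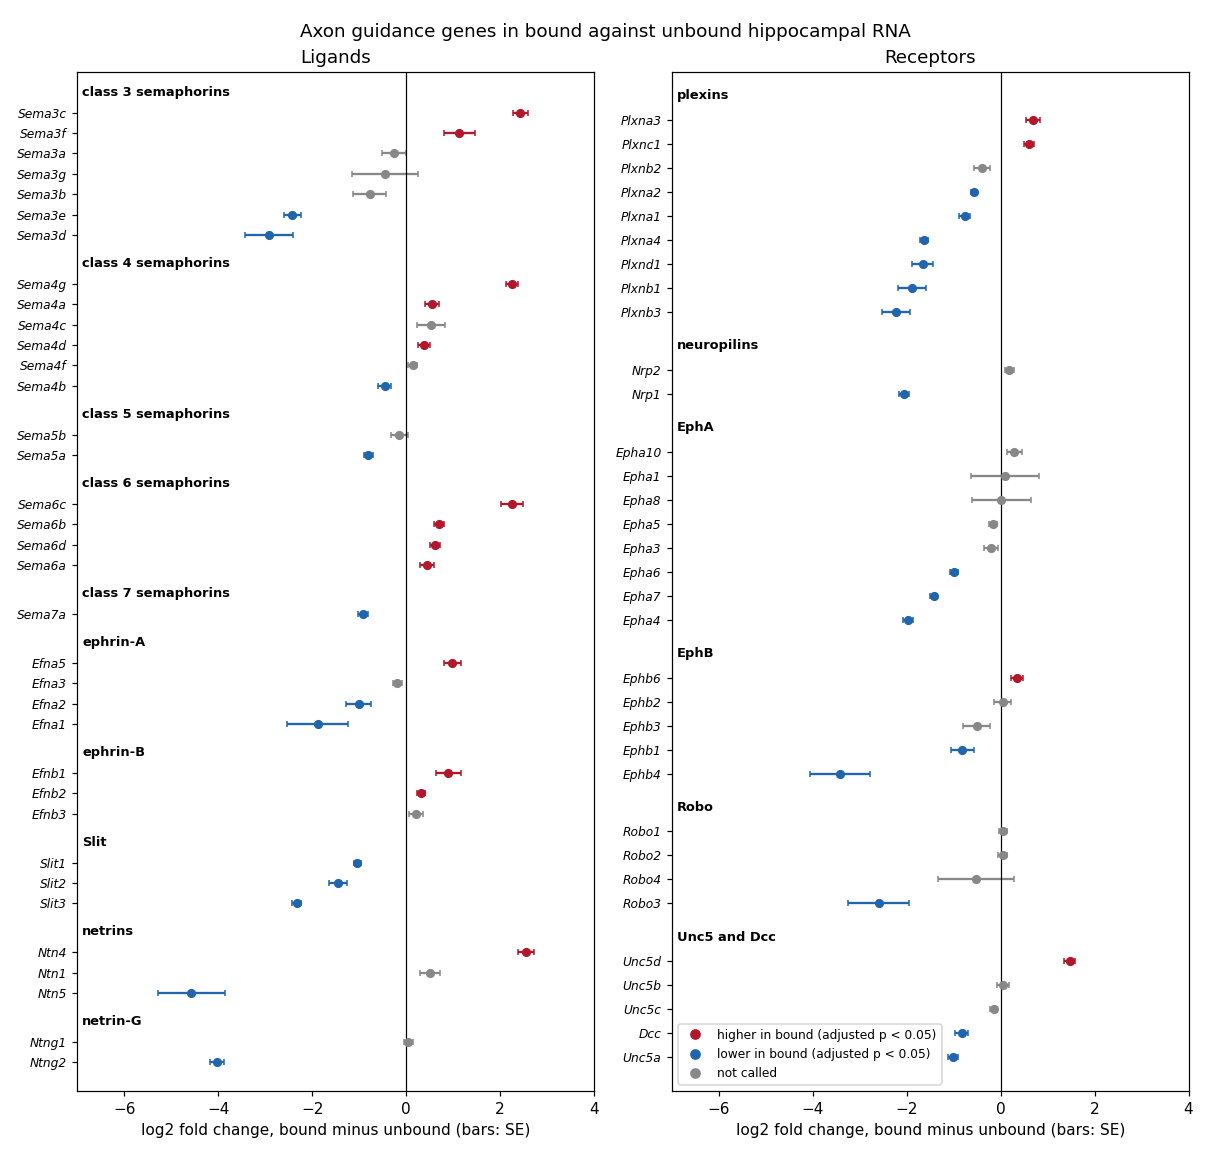
Log2 fold change (bound minus unbound, horizontal axis) of each of the 68 guidance genes by family, ligands on the left and receptors on the right; points are edgeR estimates, bars are 1 SE, and colour gives the call. Red points gather among class 4 and class 6 semaphorins, and the blue points of the receptors reach from -0.57 (Plxna2) to -3.43 (Ephb4).

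Semaphorins formed the largest ligand family, and 9 of its 20 members were higher and 5 lower in bound RNA (median log2 fold change 0.261), beside 31.0% and 30.7% of all genes. With the exon length offset 10 were higher and 3 lower, and with library totals 11 were higher and 4 lower. Class 3, the secreted class, split. Sema3c (chr5:17574281-17730268, + strand, GRCm38), a secreted semaphorin that acts through neuropilins and whose promoter is printed above, stood at 37.1, 28.9 and 32.4 CPM in the 3 bound libraries and at 4.995, 5.14, 6.51 and 7.58 CPM in the 4 unbound libraries. The groups were far apart, with means of 32.8 ± 4.14 (SD, n = 3) and 6.06 ± 1.22 CPM (SD, n = 4). Its log2 fold change was 2.44 (SE 0.16, edgeR adjusted p = 2.7e-07), which is 5.41-fold higher. Sema3f, which signals through Nrp2 and Plxna3 in the pruning of mossy fibres, was also higher (1.13, adjusted p = 0.012) but scarce, at 1.83 ± 0.332 against 0.839 ± 0.195 CPM, and its call was lost against the UBS libraries alone (0.943).

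Sema3e (chr5:14025276-14256689, + strand), known for binding Plxnd1 without a neuropilin, went the other way. It was at 10.3, 5.72 and 8.26 CPM in the bound libraries and 45.5, 38.8, 45.3 and 43.5 CPM in the unbound ones, a 5.35-fold lower level (log2 fold change -2.42, SE 0.18, edgeR adjusted p = 6.5e-07). Every bound library lay below every unbound one for both Sema3e and Sema3d. Sema3d (chr5:12383385-12588948, + strand) was scarce in bound RNA, at 1.06, 0.128 and 0.567 CPM against 4.11, 4.04, 4.79 and 4.79 CPM, and fell by 2.92 on the log2 scale (SE 0.51, edgeR adjusted p = 0.00047). Without bound replicate 1, the highest of the bound libraries, the Sema3d value was -3.74. Sema3a (log2 fold change -0.26), the classical Nrp1 ligand, Sema3b (-0.78) and Sema3g (-0.45) were not called. Sema3b was called without bound replicate 2 (-1.11, adjusted p = 0.018). Sema3c, Sema3e, Sema3d and Sema3a all lie on chromosome 5, and genes of this class on 1 chromosome went both ways.

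The membrane-spanning semaphorins of classes 4 to 6 held most of the ligands that were higher. Of 12, 7 (58.3%) were higher, 2 (16.7%) lower and 3 not called, with a median log2 fold change of 0.490. Beside them, 31.0% of all genes were higher and 30.7% lower. Against the 1.5-fold minimum, 2 of the 12 (16.7%) were higher and 1 (8.33%) lower, beside 16.6% and 18.4% of all genes. Sema4g (chr19:44989101-45003397, + strand), whose promoter is printed above, was at 61.1, 53.9 and 73.3 CPM in the bound libraries and 13.6, 11.2, 14.1 and 13.6 CPM in the unbound ones. The lowest bound library was still several times the highest unbound one, and the fold was 4.78 (log2 fold change 2.26, SE 0.12, edgeR adjusted p = 7.5e-08). Sema4a (0.55) and Sema4d (0.38) were also higher, by smaller steps, and the Sema4a call was lost against the UBS libraries alone (0.466). Sema4d, a Plxnb1 ligand known for promoting the formation of GABAergic synapses in hippocampal cultures, had overlapping groups, at 35.01, 35.05 and 30.2 against 31.4, 21.4, 24.9 and 25.3 CPM, and its adjusted p of 0.025 rose above 0.05 without bound replicate 1 or 2 or unbound replicate 2, 3 or 4. Sema4b, at 10.2, 8.55 and 7.51 CPM in the bound libraries and 13.1, 11.6, 11.9 and 11.4 CPM in the unbound ones, was the only class 4 member called lower (-0.46, SE 0.14, edgeR adjusted p = 0.015). The Sema4b call was lost with the exon length offset (-0.263), with library totals (-0.0141) and against the UBS or UBGS libraries alone. Sema4c (0.53) and Sema4f (0.14) were not called, but both were called higher with library totals (0.963 and 0.581), Sema4f also with the length offset (0.307).

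All 4 class 6 semaphorins, transmembrane ligands of the A-type plexins, were higher in bound RNA, beside 31.0% of all genes. Only Sema6c, 1 of the 4 (25%), stayed higher against the 1.5-fold minimum, beside 16.6% of all genes. Sema6a, Sema6b and Sema6d lost their calls there. Sema6c (chr3:95160457-95174024, + strand) rose most: it was at 15.7, 10.6 and 20.2 CPM in the bound libraries and 2.47, 3.02, 3.62 and 3.804 CPM in the unbound ones (4.79-fold, log2 fold change 2.26, SE 0.23, edgeR adjusted p = 7.6e-06). The bound libraries of Sema6c spread widely, yet none came near the unbound ones. Sema6d, the most abundant of the class per exon length, was at 119, 111 and 113 CPM in the bound libraries and 88.8, 79.3, 66.2 and 65.5 CPM in the unbound ones, with the UBS libraries closer to the bound ones than the UBGS libraries (1.53-fold, log2 fold change 0.61, SE 0.11, edgeR adjusted p = 0.00046). Sema6b was higher by 0.70 and Sema6a, known with Plxna2 and Plxna4 for mossy fibre layout, by 0.45 on the log2 scale. Sema6a lost its call without bound replicate 1 or 3. The 4 class 6 members were also called higher with the exon length offset and with library totals, and 3 of the 4, Sema6a excepted, with the UBGS libraries alone as the unbound group.

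Classes 5 and 7 were lower or not called. Sema5a, a thrombospondin-repeat semaphorin that acts through Plxna2 on the synapses of dentate granule cells, was at 111, 132 and 111 CPM in the bound libraries and 235, 184, 197 and 206 CPM in the unbound ones (log2 fold change -0.80, SE 0.098, edgeR adjusted p = 3.3e-05). The groups did not overlap, but with the exon length offset the Sema5a value was 0.032 and was not called. Sema5b (-0.14) was not called. Sema7a, the lipid-anchored semaphorin that binds Plxnc1 and integrins, was at 21.8, 25.8 and 26.1 CPM in the bound libraries and 47.98, 41.7, 47.97 and 48.2 CPM in the unbound ones, 1.89-fold lower (log2 fold change -0.92, SE 0.10, edgeR adjusted p = 1.4e-05).

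**Figure D2:**
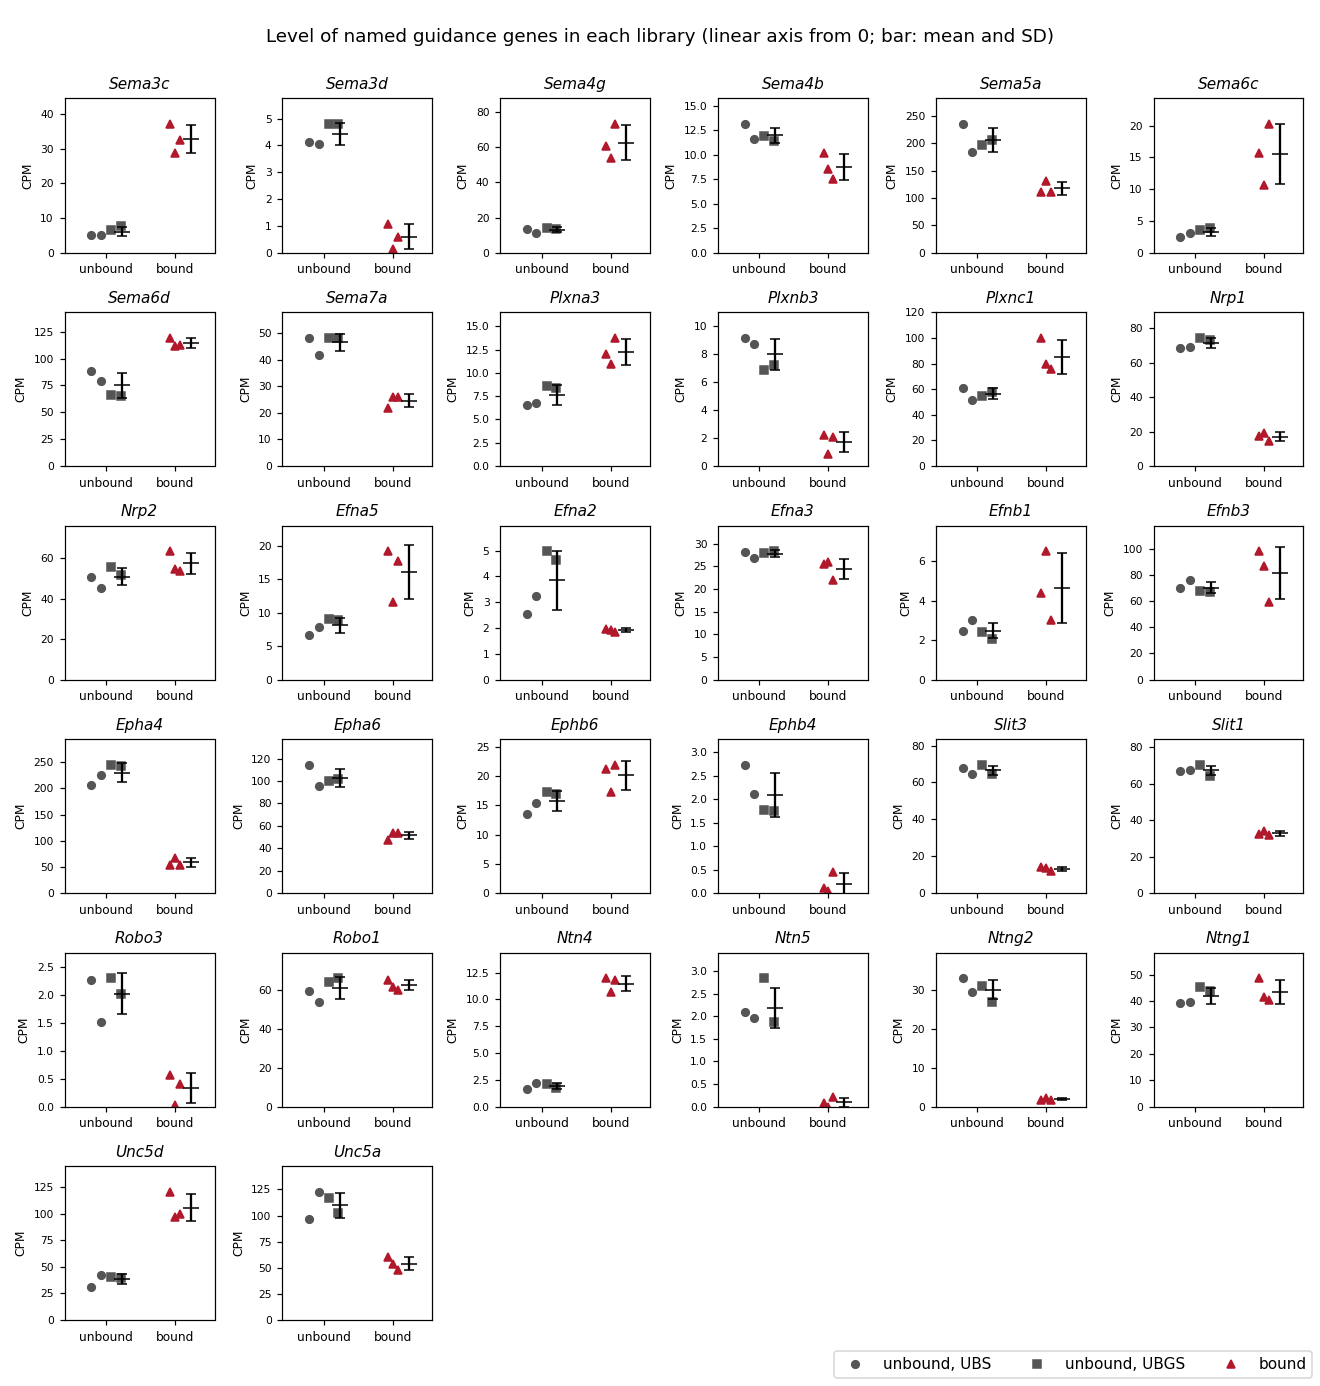
Level of each gene named by the selection rule in every library (vertical axis, CPM on a linear scale from 0); circles are UBS, squares UBGS and triangles bound libraries, and the bar to the right of each group is its mean and SD (n = 4 unbound, n = 3 bound). Sema3c, Sema4g, Sema6c, Ntn4 and Unc5d stand well above their unbound libraries, and Sema3d, Ephb4, Slit3, Robo3, Ntn5 and Ntng2 lie low on their axes in bound RNA.

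Of the 9 plexins, the signalling receptors of semaphorins, 6 were lower in bound RNA, 2 higher and 1 not called, beside 30.7% lower and 31.0% higher in all genes. The exon length offset gave 5 lower and 3 higher, and with library totals 5 were lower and 2 higher. Plxna4 (chr6:32144268-32588192, - strand), the partner of Nrp1 in Sema3a signalling and a Sema6a receptor, had the highest level per exon length of the plexins in unbound RNA and dropped from 299.6 ± 19.6 CPM (SD, n = 4) to 96.3 ± 5.49 CPM (SD, n = 3). Its log2 fold change was -1.64 (edgeR adjusted p = 2.4e-08) and the groups did not overlap. Plxna1 (-0.76) and Plxna2 (-0.57) were lower by less. Plxna4 and Plxna1 stayed lower with the exon length offset, at -0.981 and -0.372, while Plxna2 was called higher, at 0.206. Plxna3, the Sema3f receptor of mossy fibre pruning, was the A-type plexin that was higher, at 12.04, 10.9 and 13.8 CPM in the bound libraries and 6.58, 6.83, 8.62 and 8.398 CPM in the unbound ones (log2 fold change 0.69, SE 0.15, edgeR adjusted p = 0.0023).

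The B-type plexins, mostly receptors of class 4 semaphorins, were lower or not called. Plxnb3, a plexin best known from oligodendrocytes, was at 2.21, 0.865 and 2.06 CPM in the bound libraries and 9.197, 8.72, 6.88 and 7.26 CPM in the unbound ones, 4.699-fold lower (log2 fold change -2.23, SE 0.30, edgeR adjusted p = 7.6e-05). All 10 oligodendrocyte markers were lower too, with a median log2 fold change of -1.97, and their part in the Plxnb3 value was not tested. Plxnb1 (-1.89), the Sema4d receptor, was lower, with more of it in UBS than in UBGS libraries (36.5, 27.7, 20.4 and 19.7 CPM). Plxnb2 (-0.40, adjusted p = 0.057) was not called here but was called lower in 6 of the 17 alternatives, DESeq2 among them, and its sign turned with library totals (0.0407). Plxnd1 (-1.67), the Sema3e receptor, was lower as its ligand was. Plxnc1 (chr10:94790866-94944835, - strand), the Sema7a receptor, had the highest plexin level per exon length in bound RNA and was higher there, at 100.3, 79.5 and 76.2 CPM against 61.2, 51.8, 55.02 and 58.2 CPM (1.51-fold, log2 fold change 0.59, SE 0.10, edgeR adjusted p = 0.00046).

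The 2 neuropilins, co-receptors of class 3 semaphorins, parted. Nrp1 (chr8:128358604-128503363, + strand), which also binds VEGF, was at 17.4, 19.2 and 14.4 CPM in the bound libraries and 68.4, 69.02, 74.5 and 72.9 CPM in the unbound ones. It was 4.18-fold lower with tight groups (log2 fold change -2.06, SE 0.11, edgeR adjusted p = 5.3e-08). Nrp2, the Sema3f co-receptor, was at 63.4, 54.8 and 53.7 CPM in the bound libraries and 50.4, 45.3, 55.4 and 51.6 CPM in the unbound ones, and the groups overlapped (0.18, adjusted p = 0.12). With the exon length offset Nrp2 was called higher, at 0.726, while Nrp1 stayed lower, at -1.63.

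Ephrins, the membrane-tethered ligands, were higher for 3 of 7 members (42.9%), lower for 2 (28.6%) and not called for 2. Of all genes, 31.0% were higher and 30.7% lower. Among the A class, Efna5 (chr17:62604184-62881317, - strand) was at 19.2, 11.6 and 17.7 CPM in the bound libraries and 6.699, 7.85, 9.07 and 8.94 CPM in the unbound ones, 1.98-fold higher (log2 fold change 0.99, SE 0.18, edgeR adjusted p = 0.00075). Bound replicate 2 was the lowest of the bound libraries and still above every unbound one. Efna2 was lower, at 1.97, 1.94 and 1.84 CPM against 2.56, 3.25, 4.98 and 4.64 CPM, with tight bound libraries and a wide unbound group (log2 fold change -1.01, SE 0.27, edgeR adjusted p = 0.0074). The Efna2 call was lost against the UBS libraries alone (-0.599) and with library totals (-0.579). Efna3, the ephrin that astrocytes present to Epha4 on hippocampal spines, led its class per exon length and was not called, at 25.4, 25.9 and 21.9 against 28.2, 26.8, 27.9 and 28.3 CPM (-0.19, adjusted p = 0.11), although every bound library lay below every unbound one. Efna3 was called lower with the exon length offset (-0.397), and its sign turned with library totals (0.252, not called). Exons of another annotated gene cover 14.1% of the Efna3 exon length, and how reads there were counted is not given. Efna1 was lower (-1.88, adjusted p = 0.026) at under 1 CPM in bound RNA, a call that was lost without bound replicate 1 or 2 or unbound replicate 1 or 2, and its value was -2.90 without bound replicate 3.

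The B-class ephrins were higher or not called. Efnb3 (chr11:69554092-69560205, - strand) had the highest level per exon length of all 68 guidance genes in bound RNA. Its libraries overlapped, at 98.2, 86.8 and 59.5 CPM in the bound libraries and 69.96, 76.4, 67.9 and 67.3 CPM in the unbound ones, with 1 bound library below all unbound ones and the other two above them (0.21, adjusted p = 0.21). Without that library, bound replicate 3, Efnb3 was called higher at 0.395. Efnb2 was modestly higher (0.31, adjusted p = 0.007). Efnb1 was at 4.400, 6.501 and 3.02 CPM in the bound libraries and 2.47, 2.99, 2.396 and 2.08 CPM in the unbound ones (log2 fold change 0.90, SE 0.27, edgeR adjusted p = 0.014). It was highest in bound replicate 2, the library in which the summed microglia markers reached 793.9 CPM. Without that library the value of Efnb1 was 0.583 and the edgeR adjusted p was 0.074. The part of microglial RNA in the Efnb1 value was not tested.

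Of 13 Eph receptors, 5 (38.5%) were lower, 1 (7.69%) was higher and 7 were not called. The shares over all genes were 30.7% lower and 31.0% higher. Epha4 (chr1:77367185-77515088, - strand), the receptor that shortens hippocampal spines on contact with ephrins, had the highest level per exon length of all 68 guidance genes in unbound RNA. It was at 54.3, 67.5 and 53.7 CPM in the bound libraries and 206, 226, 246 and 242 CPM in the unbound ones. The groups were far apart and the fold was 3.93 (log2 fold change -1.97, SE 0.10, edgeR adjusted p = 5.0e-08). Epha7 was lower by 2.696-fold (-1.43, adjusted p = 3.3e-08). Epha6 was the Eph receptor with the highest level per exon length in bound RNA although it was lower there, at 47.8, 53.4 and 53.4 CPM against 115, 95.7, 99.99 and 102 CPM (log2 fold change -0.999, SE 0.084, edgeR adjusted p = 1.8e-06). The lower values of Epha4, Epha6 and Epha7 kept their calls with the exon length offset, at -1.63, -0.836 and -0.989. Epha3 (-0.21), Epha5 (-0.17) and the catalytically inactive Epha10 (0.29) were not called, nor were the scarce Epha1 (0.084) and Epha8 (0.007), both under 1 CPM in every library. With the exon length offset, Epha5 (0.593) and Epha10 (0.588) were called higher, as they were with library totals (0.271 and 0.72).

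Among EphB receptors, Ephb4, best known from veins, was close to the floor in bound RNA at 0.103, 0.04803 and 0.454 CPM, against 2.73, 2.104, 1.76 and 1.75 CPM in unbound libraries (10.8-fold lower, log2 fold change -3.43, SE 0.64, edgeR adjusted p = 0.00076). Bound replicate 3 held most of these counts, and without it the Ephb4 value was -4.75. Of the 11 endothelial and mural cell markers, 9 were lower, with a median log2 fold change of -2.80 over the list, and their part in the Ephb4 value was not tested. Ephb1 was lower (-0.82, adjusted p = 0.014), a call not kept with the exon length offset (-0.538), with library totals (-0.370) or against the UBGS libraries alone (-0.583). Ephb6, which has an inactive kinase domain, was the only Eph receptor called higher, at 21.2, 17.3 and 21.96 CPM in the bound libraries and 13.6, 15.4, 17.3 and 16.9 CPM in the unbound ones (log2 fold change 0.35, SE 0.13, edgeR adjusted p = 0.032). Its lowest bound library almost touched the highest unbound one, and the call was lost without bound replicate 1 or 3 or unbound replicate 2. Ephb2 (0.037) and Ephb3 (-0.52) were not called. Ephb3 was called lower without bound replicate 3, at -0.952, and Ephb2 was called higher with the exon length offset, at 0.620.

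All 3 Slits, the secreted Robo ligands, were lower in bound RNA, beside 30.7% of all genes. Slit3 (chr11:35121224-35708507, + strand) was at 14.1, 13.7 and 12 CPM in the bound libraries and 67.7, 64.7, 69.7 and 64.9 CPM in the unbound ones. Replicates agreed closely within each group, and the level was 5.03-fold lower (log2 fold change -2.33, SE 0.092, edgeR adjusted p = 7.7e-09). Slit1, the most abundant Slit per exon length in bound RNA, was at 32.4, 34.3 and 31.7 CPM in the bound libraries and 67.1, 67.4, 70.3 and 64.3 CPM in the unbound ones, 2.05-fold lower (log2 fold change -1.04, SE 0.076, edgeR adjusted p = 5.9e-07). Slit2 was lower with a wider bound group, at 20.7, 15.2 and 10.2 against 43.4, 39.5, 41.8 and 43.4 CPM (-1.45, adjusted p = 6.1e-05). Slit2 has the longest merged exons of the set, 25433 bases, and with the exon length offset its value was -0.429 and was not called.

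Of the Robo receptors, Robo1 and Robo2, the main Slit receptors of neurons, stood at close levels in both groups. Robo1 was at 65.5, 61.9 and 60.4 CPM in the bound libraries and 59.7, 53.8, 64.5 and 66.3 CPM in the unbound ones, with overlapping groups (log2 fold change 0.037, SE 0.086, edgeR adjusted p = 0.73), and Robo2 had a value of 0.037 (SE 0.095). Both were called higher with the exon length offset, at 0.789 for Robo1 and 0.807 for Robo2. Robo3, which in mammals binds Nell2 and not Slits with high affinity, was at 0.565, 0.03202 and 0.408 CPM in the bound libraries and 2.26, 1.52, 2.302 and 2.02 CPM in the unbound ones (log2 fold change -2.60, SE 0.65, edgeR adjusted p = 0.0047). Bound replicate 1 held the most, and without it the Robo3 value was -3.28. Robo4, the endothelial Robo, was not called (-0.53) and lay under 2 CPM in every library. It was called lower without bound replicate 1, at -2.14, the bound library in which it was highest.

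The netrins spanned the widest range of any family. Ntn4 (chr10:93640681-93747207, + strand), a laminin-binding netrin of basement membranes, had the largest rise of all members: it was at 11.98, 10.7 and 11.8 CPM in the bound libraries and 1.65, 2.22, 2.14 and 1.78 CPM in the unbound ones. The groups were tight and far apart, and the fold was 5.87 (log2 fold change 2.55, SE 0.17, edgeR adjusted p = 3.1e-07). Ntn1, the classical Dcc ligand, was scarce and not called, at 3.79 ± 0.213 against 2.64 ± 0.431 CPM (0.52, adjusted p = 0.053), and was called higher with the exon length offset (0.757). Ntn5 (chr7:45684022-45694556, + strand) had the largest fall. It was at 0.0856, 0 and 0.204 CPM in the bound libraries and 2.09, 1.96, 2.84 and 1.88 CPM in the unbound ones (log2 fold change -4.57, SE 0.72, edgeR adjusted p = 0.00022). The bound values rest on 5, 0 and 9 counts, and a count of 0 in bound replicate 2 allows up to 0.0480 CPM (3 counts, counting error only). Without bound replicate 3 the Ntn5 value was -5.63, and without replicate 2 it was -3.94. Exons of Sec1 cover 23.4% of the Ntn5 exon length, so reads of the 2 genes cannot be told apart if counting ignored strand.

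The 2 lipid-anchored netrin-G proteins parted. Ntng2 (chr2:29194541-29253005, - strand), whose promoter is printed above and which is known from pyramidal neurons of the Schaffer collateral path, was at 1.78, 2.097 and 1.61 CPM in the bound libraries and 33, 29.4, 30.9 and 27 CPM in the unbound ones. Every unbound library was over 10 times every bound one, and the fold was 16.3 (log2 fold change -4.03, SE 0.14, edgeR adjusted p = 3.6e-09). Its exons overlap those of another gene over 14.0% of their length. The excitatory neuron markers, 11 of 12 of them lower, had a median log2 fold change of -4.50, and their part in the Ntng2 value was not tested. Ntng1, at 48.7, 41.4 and 40.3 CPM in the bound libraries and 39.2, 39.5, 45.4 and 43.8 CPM in the unbound ones, overlapped between groups and was not called (log2 fold change 0.051, SE 0.097, edgeR adjusted p = 0.67). Ntng1 was called higher with the exon length offset (0.403) and with library totals (0.488).

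The netrin receptors also split. Unc5d (chr8:28646717-29219636, - strand), a repulsive netrin receptor that also binds Flrt2, was the receptor with the largest rise, at 120.5, 97.01 and 99.2 CPM in the bound libraries and 31.4, 42.3, 40.1 and 39.1 CPM in the unbound ones. The groups did not overlap and the fold was 2.76 (log2 fold change 1.46, SE 0.11, edgeR adjusted p = 8.5e-07). Unc5a (chr13:54949411-55006018, + strand), its close relative, was 2.03-fold lower, at 60.1, 53.9 and 47.8 CPM against 96.8, 123, 117 and 102 CPM (log2 fold change -1.02, SE 0.11, edgeR adjusted p = 9.7e-06), yet still had the highest level per exon length of any receptor in bound RNA. Dcc, the attractive netrin receptor, was lower (-0.83, adjusted p = 0.0003), and with the exon length offset its value was -0.219 and was not called. Unc5b (0.052) and Unc5c (-0.15) were not called, and Unc5c was called higher with that offset (0.690) and Unc5b with library totals (0.491). Unc50 (log2 fold change 0.26), which is no netrin receptor, was not called.

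**Figure D3:**
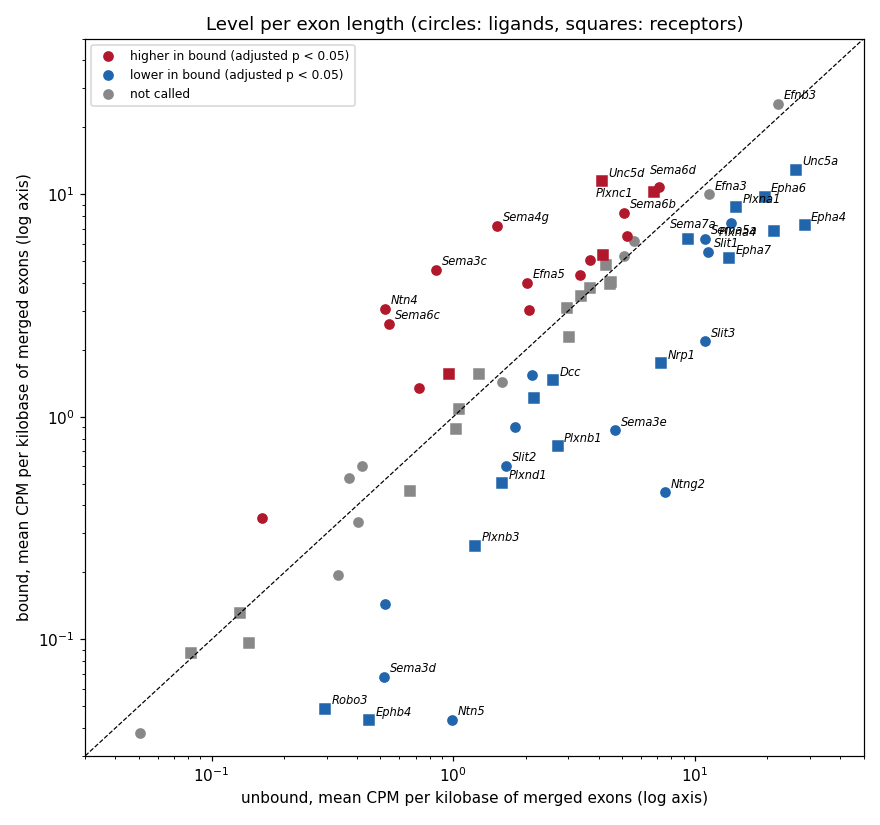
Mean level per kilobase of merged exons in unbound (horizontal) and bound (vertical) libraries, both axes logarithmic; circles are ligands, squares receptors, the dashed line marks equal levels, and colour gives the edgeR call. Efnb3 lies at the top at 25.6 in bound and 22.1 in unbound RNA, and Ntng2 lies far below the line at 0.459 against 7.54.

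Levels between genes were compared per length, as CPM per kilobase of merged exons. In bound RNA the order among the 68 guidance genes began with Efnb3 at 25.6 ± 6.25 (SD, n = 3), Unc5a at 12.9 ± 1.49, Unc5d at 11.4 ± 1.41, Sema6d at 10.8 ± 0.413 and Plxnc1 at 10.2 ± 1.57. Every bound library of Efnb3 lay above every bound library of Unc5a, and from Unc5a down to Plxnc1 each gene's libraries overlapped those of the next. In unbound RNA the order began with Epha4 at 28.5 ± 2.25 (SD, n = 4), Unc5a at 26.3 ± 2.91, Efnb3 at 22.1 ± 1.31, Plxna4 at 21.2 ± 1.39 and Epha6 at 19.5 ± 1.54. Here each gene's libraries overlapped those of the next, while every Epha4 library lay above all those of Efnb3, Plxna4 and Epha6, and every Unc5a library above all those of Epha6. Epha4 moved from rank 1 in unbound to rank 11 in bound RNA, Ntng2 from 14 to 55, Unc5d from 27 to 3, Sema4g from 44 to 12 and Sema3c from 51 to 24. The last ranks in bound RNA, Sema3g at 0.0382 ± 0.03296 CPM per kilobase, Ephb4, Ntn5 and Robo3, lay within each other's spread.

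Ligands and their receptors in the same RNA were set side by side, as values and with no test of the pairs. Sema3e and Plxnd1 were both lower (-2.42 and -1.67 on the log2 scale). Sema7a was lower and Plxnc1 higher (-0.92 and 0.59). The 3 Slits were lower while Robo1 and Robo2 were not called, a pattern that with the exon length offset became 2 Slits lower and both receptors higher. Ntng2 was lower at -4.03 while its postsynaptic ligand Lrrc4 was not called (0.18, adjusted p = 0.066), and Ntng1 was not called, or was called higher with the exon length offset, while its ligand Lrrc4c was lower (-0.76). Robo3 and its ligand Nell2 were both lower (-2.60 and -3.13), and Unc5d and Flrt2 both higher (1.46 and 0.42). Efna5 was higher. Of the A-class receptors, which bind ephrin-A ligands broadly, Epha4, Epha6 and Epha7 were lower and the others were not called. Epha5 and Epha10 were called higher with the exon length offset and with library totals.

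**Figure D4:**
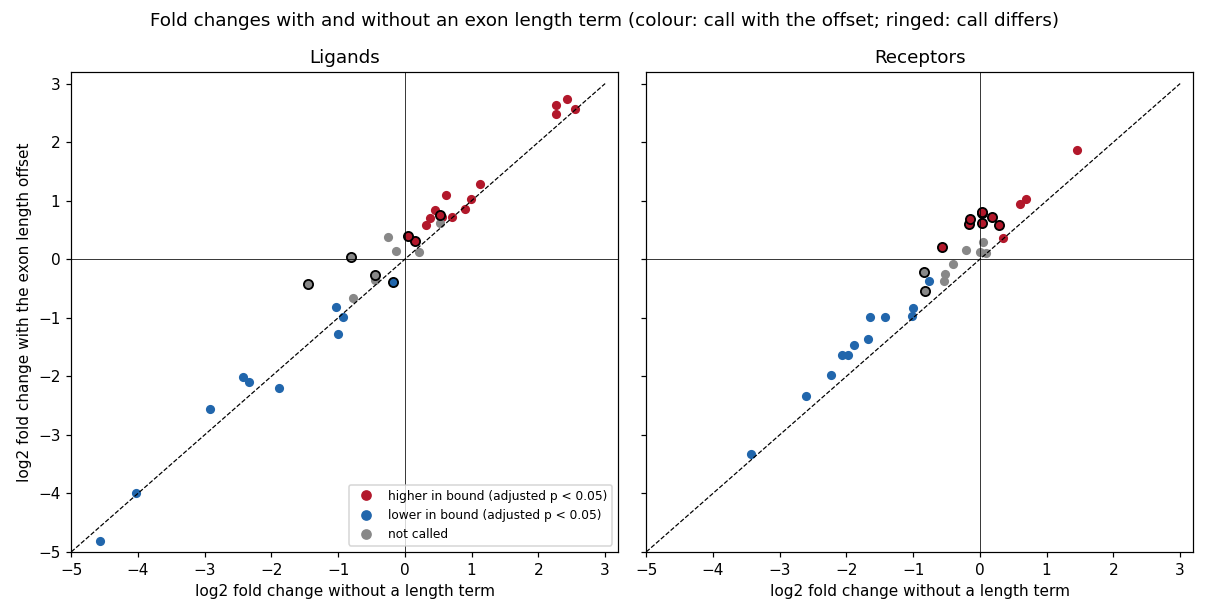
Log2 fold change of each guidance gene without (horizontal) and with (vertical) an offset for exon length, ligands left and receptors right; colour gives the edgeR call with the offset, ringed points changed call, and the dashed line marks equal values. Most receptors lie above the line, and their count moved from 4 higher and 15 lower to 12 and 12.

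Downstream of the receptors, 52 signalling genes of guidance pathways were followed as a list. Of these, 22 were higher and 18 lower, with a median log2 fold change of 0.004, against 31.0% higher and 30.7% lower in all genes. The largest rises among those with a mean of at least 10 CPM were Chn2 (2.25, adjusted p = 1.6e-07), the Rac-inactivating chimaerin that acts below Sema3f and Nrp2, Vav2 (2.12, adjusted p = 3.8e-07), an exchange factor recruited by Eph receptors, and Evl (1.79, adjusted p = 9.5e-09), an actin regulator of the Ena/VASP family. Chn2 stood at 80.5 ± 14.2 CPM (SD, n = 3) in the bound group and 16.8 ± 2.16 CPM in the unbound group (SD, n = 4). Large falls were those of Dock1 (-2.67, adjusted p = 1.5e-06), a Rac activator, and Ptk2 (-1.58, adjusted p = 3.0e-07), the focal adhesion kinase.

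A list of 29 co-receptors and partner ligands held 7 higher and 13 lower genes, with a median of -0.318, against 31.0% higher and 30.7% lower in all genes. Against a 1.5-fold minimum, where 16.6% of all genes were higher and 18.4% lower, 10 of the list were lower and 1 was higher, the Met receptor (1.88), which averaged under 10 CPM and is named here after its values were seen. The largest rises at 10 CPM or more were small: Ptprf (0.60), a receptor phosphatase, L1cam (0.59), an adhesion molecule that joins Nrp1 in Sema3a reception, and Rgmb (0.59), a neogenin ligand. The largest falls were Nell2 (-3.13, adjusted p = 1.9e-10), at 35.4 ± 1.44 CPM in the bound group and 310.1 ± 14.8 CPM in the unbound group, the Nogo receptor Rtn4r (-2.56, adjusted p = 2.9e-08) and its partner Lingo1 (-1.92, adjusted p = 2.8e-08).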

How the data were processed

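Read counts per gene for 3 bound and 4 unbound libraries were used as deposited. Per the submitters' processing notes, the authors made the counts with STAR 2.5.3a and HTSeq on mm10. Not given in the sources used here are the annotation release, the strand setting and the treatment of multiply mapping reads. IDs were matched without version to GENCODE M21 (GRCm38), which named 37693 of 39017. Genes were filtered with filterByExpr, scaled by TMM and tested with edgeR 4.0.16 (glmQLFit robust, glmQLFTest, two-sided, Benjamini-Hochberg over 19563 genes, threshold 0.05) in R 4.3.3. No block was fitted. Fold changes are edgeR estimates, SEs were derived from the F statistic, and CPM used TMM-scaled totals. On simulated counts with the same design and 19563 genes, the test called 73 of 100 genes with a true change of 1 log2 unit. It called 91 of 100 with a change of 2, with 16 false calls among 18889 unchanged genes tested. Far fewer genes changed there than in these data, where 31.0% were called higher and 30.7% lower. The simulated rates therefore need not hold for these data. Alternatives were DESeq2 1.42.0, RLE factors, library totals, an exon length offset, other filters, a 1.5-fold minimum, subsets of unbound libraries and leaving out each library. The members and lists were chosen with earlier results of these data known.

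Every member is named with its value. In each family the member with the largest rise, the largest fall (called, mean of at least 1 CPM, no overlap) and the highest bound level per exon length is given by library, and list genes are the 3 largest rises and falls at 10 CPM or more. Sema3e, Sema4d, Slit2, Met and the 4 promoters were added after values were seen. One list gene that the rule names is not reported here. Proteins were not used here.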

Additional observations from a re-analysis of the deposited data

Results flagged for a closer look

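In 6 of the 69 members, 1 of the 4 unbound libraries lay far from the other three, by a gap that made up more of the group's range than Dixon's 95% critical value allows. Chance alone marks about 1 in 20 groups. In 4 of the 6 the library was unbound replicate 2, a UBS library, which was low each time. Sema4g was at 11.2 CPM there against 13.6 to 14.1 in the other unbound libraries, and Sema6a was at 26.4 against 33.8 to 35.1. Sema7a was at 41.7 CPM there against 48.0 to 48.2, and Epha5 at 65.6 against 76.9 to 78.4. In the other two, unbound replicate 1, also a UBS library, was high: Epha10 was at 10.6 CPM against 8.57 to 8.86, and Robo4 at 1.53 against 0.423 to 0.584. The calls of Sema4g (higher), Sema7a (lower) and Sema6a (higher) were kept without unbound replicate 2, and Epha5, Epha10 and Robo4 were not called with or without the library concerned.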

How the results depend on the processing

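The 27 lower calls stayed between 22 and 28 under all alternatives other than the 1.5-fold minimum, where 21 remained. The 17 higher calls became 6 with the 1.5-fold minimum, 28 with the exon length offset and 30 with library totals, and the median of -0.186 became 0.116 and 0.252 with the last 2 of these. Leaving out each library gave 15 to 17 higher, 26 to 28 lower and medians of -0.213 to -0.113. Of the 44 called members, 24 kept the call in all 17 alternatives and 30 in all but the 1.5-fold minimum.

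Signs changed for 2 called members, Sema5a (0.032) and Plxna2 (0.21, called higher), both with the length offset, and for 17 of the 25 uncalled ones. With the length offset these were Sema3a (0.38), Sema5b (0.15), Epha3 (0.16), Epha5 (0.59), Unc5c (0.69) and Unc50 (-0.11), and with library totals Sema3a (0.19), Sema5b (0.30), Plxnb2 (0.041), Efna3 (0.25), Epha3 (0.22), Epha5 (0.27) and Unc5c (0.28). Epha8 turned with DESeq2 (-0.022) and RLE factors (-0.019). With the UBGS libraries alone, Epha1 (-0.63), Epha8 (-0.17), Ephb2 (-0.086), Robo1 (-0.041), Robo4 (0.20) and Ntng1 (-0.016) turned, and with the UBS libraries alone Unc5b (-0.046). With each library left out, the members that turned were Sema3g from -1.33 to 7.6e-07, Epha1 from -0.32 to 0.60, Epha8 from -0.44 to 0.50, Ephb2 from -0.18 to 0.16, Robo2 from -0.036 to 0.14, Ntng1 from -0.034 to 0.10, Unc5b from -0.0014 to 0.18, Sema5b from -0.31 to 0.048, Robo4 from -2.14 to 0.0704 and Robo1 from -0.0069 to 0.085. The causes were not tested.

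No paired analysis was possible because the labels give no numbers shared by the groups. Members under 1 CPM, such as Epha1, Epha8, Sema3g and Robo4, rest on few counts, which limits what their values can show. Counts of genes with overlapping exons (Ntn5, Efna3, Ntng2, Plxna1, Sema4c and Epha1) can hold reads of a neighbour, for example in Ntn5, whose lowest value with a library left out was -5.63.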
